A study of Mus musculus with 4 samples.

Results

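H3K36me3 was examined over 3 windows, given for the genes Myo18b, Stab2 and Dapk1, in wild-type mouse myocytes and in mutant myocytes that lack an H19/Igf2 enhancer specific to muscle. H3K36me3 is trimethylation of histone H3 at lysine 36. The windows were chosen by a measured value: they hold bins of 100 kb in which H3K36me3 islands covered far more in the mutant than in the wild type. Their difference in cover is therefore a description and not a finding, and no test of it is given. An island is a stretch in which the authors' caller found an excess of ChIP-seq reads. The windows held 63 of the 69798 islands of the mutant list and 10 of the 58326 islands of the wild-type list.

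The 2 groups were both of the FVB strain and were both grown from skeletal muscle myoblasts taken on postnatal day 4. They were cultured for 5 to 10 passages and then allowed to form myotubes for 24 hours after growth factors were withdrawn. The groups differ by genotype, wild type or enhancer deletion mutant, and the labels do not say whether 1 or both alleles carry the deletion. The study design describes 1 wild-type line and 1 mutant line, with 1 H3K36me3 library each. Genotype, cell line and library cannot be told apart, and no value below has a replicate check. A mark carried by fewer cells and a weaker mark in every cell cannot be told apart either. The input DNA libraries were not analysed here, and neither were RNA levels or the cell type markers.

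H3K36me3 is laid down on nucleosomes by the methyltransferase SETD2, which travels with elongating RNA polymerase II, so that the mark typically fills the bodies of transcribed genes. Myo18b encodes an unconventional myosin of skeletal and cardiac muscle that is needed for the assembly of sarcomeres. Stab2 encodes stabilin-2, a scavenger receptor for hyaluronan that is best known from sinusoidal endothelium of the liver and that has also been linked to the fusion of myoblasts. Dapk1 encodes death-associated protein kinase 1, a calmodulin-regulated serine/threonine kinase with roles in apoptosis and autophagy. None of the 3 genes lies on the chromosome of the deleted enhancer, chromosome 7.

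The windows span chr5:113100001-113340000 for Myo18b, chr10:86290001-86480000 for Stab2 and chr13:60690001-60875000 for Dapk1 in the mm9 build. They are 240, 190 and 185 kb long. Where the 3 genes start and end on mm9 was not analysed here, so the blocks below are set against the windows and not against exons, introns or gene ends. In the RefSeq gene table of the later build GRCm38.p6, used here for gene order alone, Myo18b lies between the noncoding gene Gm30529 and Grk3, a G protein-coupled receptor kinase. The noncoding gene 1700095B10Rik overlaps it. Stab2 lies between Nt5dc3 and 1700113H08Rik, with the noncoding gene Gm16271 and the pseudogene Gm16270 overlapping it. Dapk1 lies between the noncoding gene A530001N23Rik and BC051665, and Gm35540 overlaps it. An island carries no strand, so marks of overlapping genes cannot be separated.

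The mark filled most of each window in the mutant and little or nothing in the wild type. Islands covered 78.6% of the Myo18b window in the mutant, or 188.6 kb, and 0% in the wild type. They covered 74.4% of the Stab2 window in the mutant (141.4 kb) and 9.26% in the wild type (17.6 kb). For Dapk1 the values were 56.6% (104.8 kb) and 12.4% (23 kb). The 3 windows thus differ in what the wild type held: no island at Myo18b, 4 islands at Stab2 and 6 at Dapk1. At Stab2, all but the island from 86425801 to 86430600 belonged to a wild-type block that began before the window, at 86267401.

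**Figure D1:**
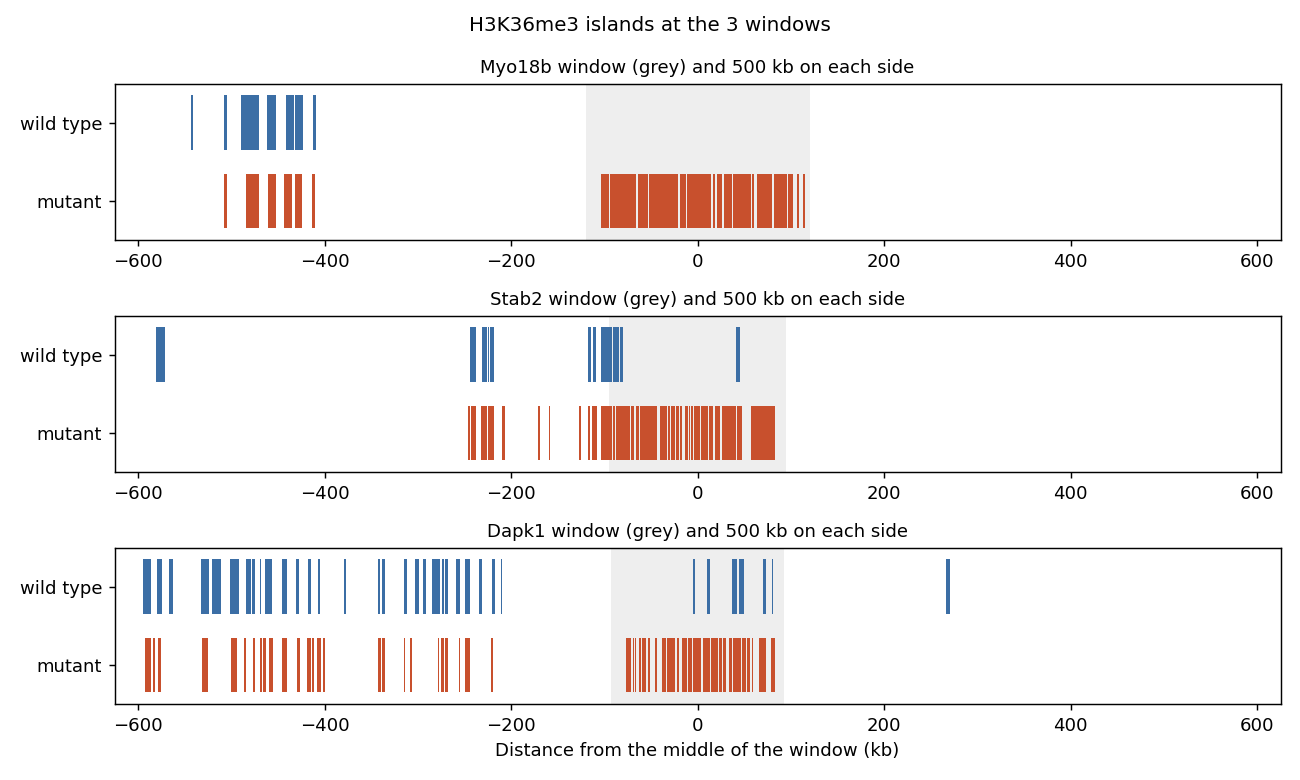
Islands of the wild-type library (blue) and the mutant library (red) in each window (grey) and in the 500 kb on each side, by distance in kb from the middle of the window. The mutant islands fill 78.6%, 74.4% and 56.6% of the Myo18b, Stab2 and Dapk1 windows, and the 500 kb to the right of the Myo18b and Stab2 windows hold no island in either library.

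The difference was read against all stretches of the same length. Tiles were laid from the start of each chromosome, and those with an island in either list were kept. Of 7954 tiles of 240 kb, 1 was covered at least 50 percentage points more in the mutant (0.0126%), and that tile lay over the Myo18b block. Of 9502 tiles of 190 kb there were 3 (0.0316%), over the Stab2 block, the Myo18b block and a stretch of chromosome 15 (chr15:97090001-97280000). Of 9689 tiles of 185 kb there was 1 (0.0103%), which again lay over Myo18b. The counts depended on where the tiles began: shifted by 1 in 2 of their length, they were 3, 1 and 3 in place of 1, 3 and 1. The Dapk1 window itself differed by 44.2 points. A difference of at least 20 points was reached in 0.39%, 0.474% and 0.444% of the tiles of the 3 lengths. In the opposite direction, the wild type was higher by at least 50 points in 0, 2 and 2 tiles. Since the rule used this contrast, these shares only show how the windows stand among the rest.

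In single bins of 100 kb, the Myo18b bins starting at 113200001 and 113100001 had the largest and second largest excess in the mutant among 15245 bins, 87.2 and 79.0 points. The Stab2 bin starting at 86300001 came next with 75.4 points, from 4.2% wild-type to 79.6% mutant cover. The Dapk1 bin starting at 60700001 had rank 5 with 56.2 points (6.2% and 62.4%), after a bin on chromosome 15 with 64.8 points. The choice did not follow a strict limit: that chromosome 15 bin, with rank 4, was left out. So was the bin with rank 6, on chromosome 6 (chr6:92800001-92900000), with 49.0 points (18.6% and 67.6%). The other bins that the windows touch had 48.6 (rank 7) and 4.2 points at Stab2, 25.6 at Dapk1 and 22.4 at Myo18b.

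Over Myo18b the mutant held 1 nearly closed block. Its 17 islands ran from 113116801 to 113335400 on chromosome 5, a span of 218.6 kb of which 86.3% was covered. The longest gap between neighbouring islands was 4.4 kb, and the median gap was 1.4 kb. The 3 longest islands were 31.4 kb (113168001 to 113199400), 28 kb (113126401 to 113154400) and 26 kb (113208801 to 113234800). In steps of 20 kb, cover lay between 79.0% and 97.0% in each of the 10 steps from 113120001 to 113320000, and the outermost steps of the window had 16.0% and 33.0%. The block began 16.8 kb inside the window and ended 4.6 kb before its end.

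The nearest wild-type islands ended 306.2 kb before it and began 852.0 kb after it. In the mutant list the corresponding distances to other islands were 306.6 and 852.4 kb. The wild-type list thus had an empty stretch of 1376.8 kb (chr5:112810601-114187400) whose only mutant islands were the 17 of the block. Among all 58303 stretches between neighbouring wild-type islands, this one held the most mutant cover, 188.6 kb. It was the only one that held 100 kb or more. Such ranks of stretches, here and below, reuse the contrast by which the windows were chosen and are a description. In the reverse direction, 4 stretches without mutant islands held 100 kb or more of wild-type islands, up to 162.4 kb, and all 4 lay on chromosome 14.

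Over Stab2 the mutant block continued a stretch that was marked in both libraries. With islands joined across gaps of up to 10 kb, the mutant block ran from 86258001 to 86467600 on chromosome 10. It spanned 209.6 kb, held 25 islands and was 75.8% covered, against 16.1% of the same span in the wild type. Its left end lay 32 kb before the window. There the wild-type list held a block of its own, 5 islands from 86267401 to 86305200. One island was nearly the same in both: it ran from 86281401 to 86292800 (wild type) and from 86281601 to 86293200 (mutant). Of the mutant block's 3 equal parts, the left one had 70.2% mutant and 41.5% wild-type cover. The middle part had 77.4% and 0%, and the right part 79.7% and 6.86%.

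Past 86305200 the 2 libraries parted. The wild-type list was empty for 120.6 kb, up to an island of 4.8 kb (86425801 to 86430600), and then for 893.2 kb. The first of these empty stretches held 97.2 kb of mutant islands, the second highest value among the 58303 stretches. The second held 28 kb. The 3 longest mutant islands of the Stab2 window were 21 kb (86442201 to 86463200), 18.8 kb (86323201 to 86342000) and 15.4 kb (86297001 to 86312400). Another island, from 86411001 to 86426400, was also 15.4 kb long. The lone wild-type island on the right was overlapped by mutant islands over 83.3% of its length. The promoter table of GRCm38.p6 places Stab2 on the minus strand, so that the gene is read from right to left there.

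Over Dapk1 the mutant block was more broken, and the wild type held scattered islands inside it. The mutant block ran from 60705401 to 60865200 on chromosome 13, spanned 159.8 kb and held 24 islands that covered 65.6% of it. The wild-type islands covered 14.4% of the same span. The extent of this block depended on how islands were joined and kept: it was 98.0 kb with gaps of up to 5 kb and 65.0 kb in the upper 50% of islands by score. No mutant island over Dapk1 was longer than 8.8 kb, a length reached by 2 islands (60777201 to 60786000 and 60820401 to 60829200), followed by 1 of 7.8 kb (60750201 to 60758000). The 6 wild-type islands were 1.2 to 6.2 kb long and all lay in the right 2 of the block's 3 equal parts, between 60777401 and 60863000. The 3 longest were those of 6.2 kb (60826401 to 60832600), 5.4 kb (60819601 to 60825000) and 4 kb (60852201 to 60856200). Wild-type cover of the 3 parts from left to right was 0%, 11.7% and 31.5%, and mutant cover was 60.9%, 74.8% and 61.0%. Before the first wild-type island of the window, the wild-type list was empty for 204.4 kb, which held 43.6 kb of mutant islands. Dapk1 is on the plus strand in GRCm38.p6 and is read from left to right there.

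**Figure D2:**
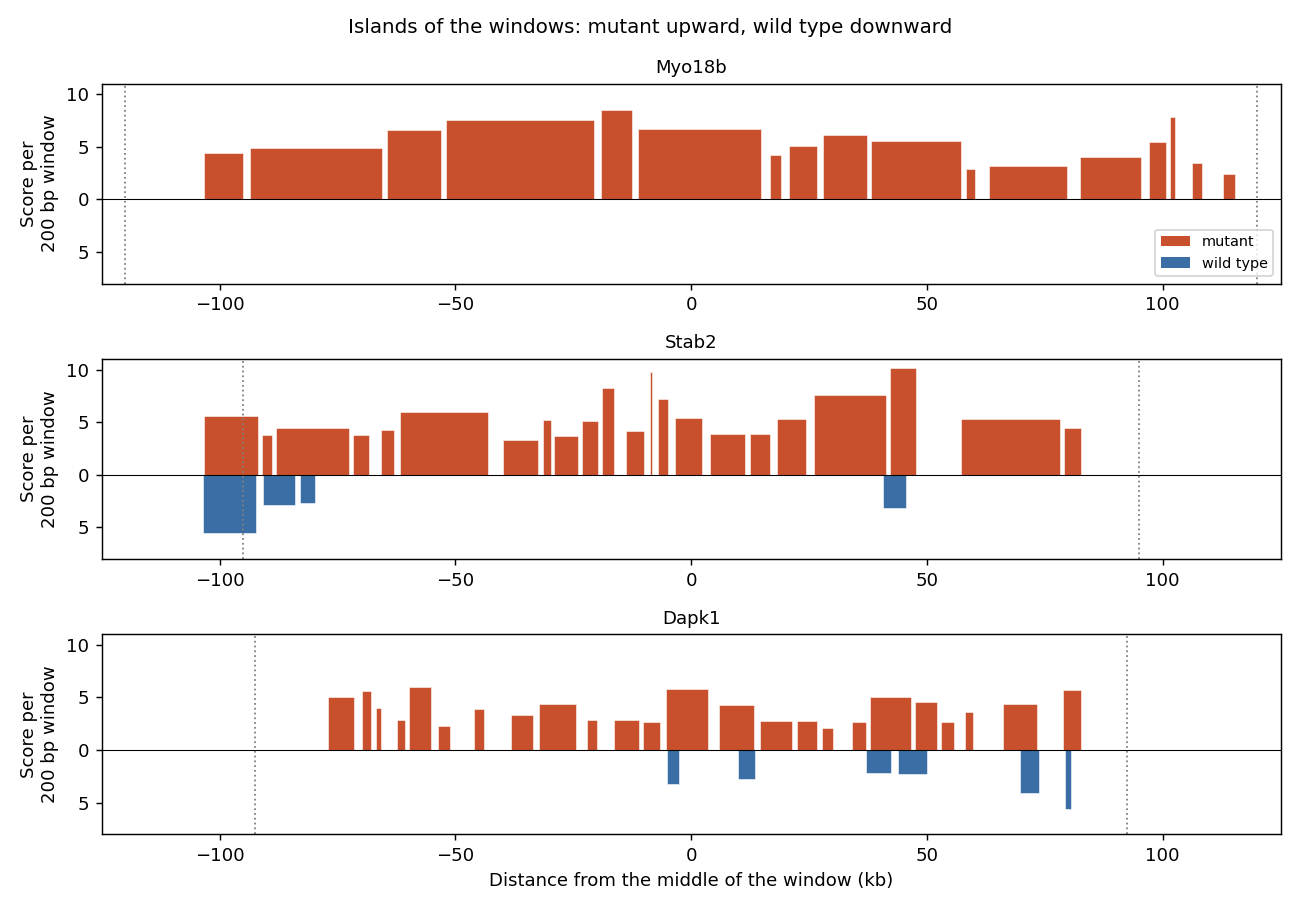
Every island of the windows as a bar, by distance in kb from the middle of the window (dotted lines: window ends), with the deposited score per 200 bp window as height, mutant upward and wild type downward. Scores of the 2 lists depend on their depth and are not compared with each other. The wild type has 0, 4 and 6 islands at Myo18b, Stab2 and Dapk1, and the mutant 17, 22 and 24.

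All 10 wild-type islands of the windows overlapped a mutant island, where 18% of all wild-type islands had no overlap in the mutant list. With windows chosen for high mutant cover and an overlap of 1 bp sufficing, little else was possible, and nothing is read from this count. By length, 90.9% of the wild-type cover in the Stab2 window and 90.4% of that in the Dapk1 window was also covered in the mutant. Conversely, 52 of the 63 mutant islands had no overlap in the wild type, 82.5%, against 25.7% of all mutant islands. They were 17 of 17 over Myo18b, 17 of 22 over Stab2 and 18 of 24 over Dapk1. This count, too, uses the contrast by which the windows were chosen. Of the mutant islands of at least 5 kb, 11 of 11 over Myo18b, 7 of 11 over Stab2 and 4 of 8 over Dapk1 had no overlap. The share among all mutant islands of that length was not computed, so nothing is read from these counts.

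The mutant islands over Myo18b and Stab2 were long and dense within the mutant list, and those over Dapk1 were closer to its median. Windows chosen for high mutant cover favour such islands, so the counts below are a description and not a finding. The median mutant island was 3 kb long and had a deposited score of 3.95 per 200 bp window. Over Myo18b, 12 of 17 islands were longer than the list's median and 13 of 17 had a higher score per window. The counts were 16 and 16 of 22 over Stab2, and 15 and 11 of 24 over Dapk1. By total score, 9 islands over Myo18b, 6 over Stab2 and 2 over Dapk1 belonged to the highest 10% of the mutant list. Islands of 20 kb or more, which made up 1.32% of the mutant list, numbered 3 over Myo18b, 1 over Stab2 and 0 over Dapk1.

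**Figure D3:**
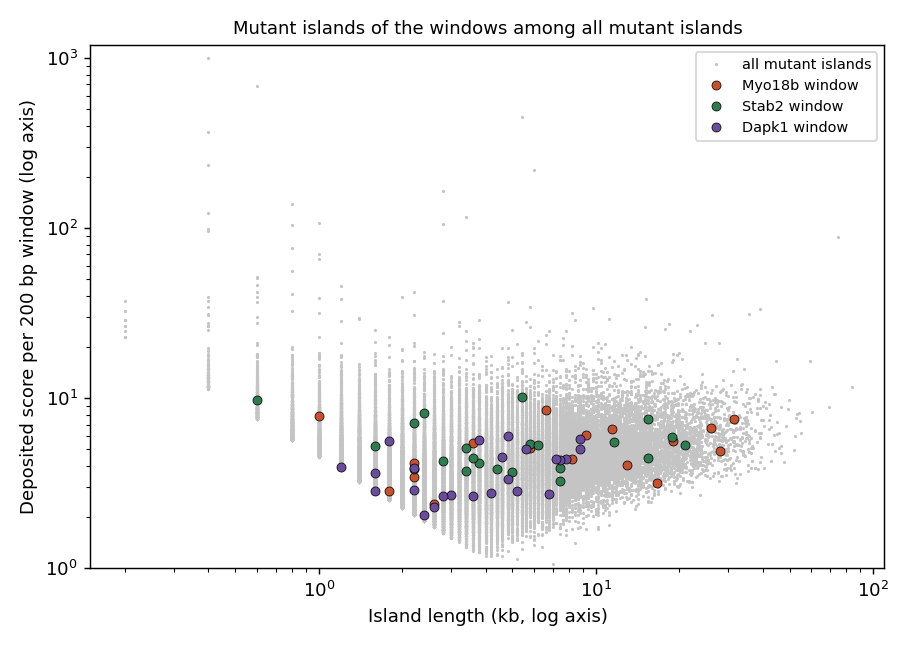
Length in kb and deposited score per 200 bp window of each mutant island, both on log axes, with the islands of the 3 windows in colour on all 69798 mutant islands in grey. The Myo18b islands reach 31.4 kb, the Stab2 islands 21 kb and the Dapk1 islands 8.8 kb.

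A score per window can be expressed in reads, because the score of a window is fixed by its read count and the mean depth. Solved from islands of a single window, that mean was 2.82 reads per 200 bp for the wild type and 3.11 for the mutant. If reads were spread evenly over the islands, the mean score of the Myo18b islands, 5.65 per window, would correspond to 8.95 reads per window, or 2.88 times the library mean. For the Stab2 islands of the mutant the value was 2.81 times the mean, and for the Dapk1 islands 2.39 times. The wild-type islands stood at 2.47 times the wild-type mean in the Stab2 window and 2.02 times in the Dapk1 window. Whole islands were used, also the one that begins before the Stab2 window. The other wild-type islands there stood at 2.01, 1.91 and 2.13 times the mean. At the island shared on the left of Stab2 the multiples were 2.85 for the mutant and 2.96 for the wild type. Further right, the lone wild-type island stood at 2.13 times its mean, and the mutant island from 86427201 to 86432600, which overlaps it, at 4.01 times.

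Density was uneven along the blocks. Over Myo18b the score per window was 5.94, 6.60 and 4.21 in the left, middle and right parts of the block. The peak, 8.52, belonged to the island from 113200801 to 113207400. The Stab2 block had 4.64, 5.01 and 6.22 from left to right, highest at the end away from the stretch marked in both libraries. The Dapk1 block had 4.36, 3.69 and 4.33. The 3 blocks therefore share no common gradient from left to right.

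The lists do not have the same floor. Wild-type scores went down to 30.3 and mutant scores to 22.6. In the mutant, 1 of 17 islands over Myo18b, 1 of 22 over Stab2 and 5 of 24 over Dapk1 scored below the wild-type floor. So did 14283 of all 69798 mutant islands. As a calculation, each mutant island was given the same multiple of the mean at the wild-type depth, again with reads spread evenly. At least the wild-type floor would then be reached by 15 of 17 islands over Myo18b, 21 of 22 over Stab2 and 18 of 24 over Dapk1. The share of all mutant islands that would reach it was not computed, and the windows were chosen for high mutant cover. Nothing is therefore read from these counts. The longest Myo18b island, with a deposited score of 1187, would score 1100. A run of 2.6 kb with 5 reads in each window would reach the wild-type floor. Whether floor or depth accounts for the empty stretches of the wild-type list was not tested.

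In the 500 kb on each side, the percentage covered differed less between the 2 libraries than in the windows. None of the flanks had an excess in the mutant of the size seen in the windows. The windows were chosen for their excess, so a smaller difference beside them is a description and not a finding. In the 500 kb before the Myo18b window, cover was 11.1% for the wild type and 8.88% for the mutant. Of the mutant cover 94.6% was shared, and of the wild-type cover 75.8%. All islands of this flank, in both lists, lay at least 289.4 kb from the window. The largest of these islands ran from 112730801 to 112750200 in the wild type (19.4 kb) and from 112736201 to 112749600 in the mutant (13.4 kb). In the 500 kb after the window neither list had an island.

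Over their full length, the flanks of Stab2 had nearly the same percentage of cover in both libraries. The 500 kb before the window had 8.92% wild-type and 9% mutant cover. Of the mutant cover 70.7% was shared, and of the wild-type cover 71.3%. Within it, the farthest 100 kb had 10.2% wild-type and 0% mutant cover, and the nearest 100 kb had 16.2% and 20.6%. The nearest part includes the left end of the mutant block. The 500 kb after the window had no island in either list.

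Before the Dapk1 window the order was the opposite of that inside it. The 500 kb there had 25.0% cover in the wild type (29 islands) and 16.8% in the mutant (27 islands), a ratio of 0.671. Of the mutant cover 75.4% was shared, and of the wild-type cover 50.6%. The 100 kb steps from far to near had 42.6%, 33.6%, 14.6%, 34.0% and 0% in the wild type. In the same order the mutant had 24.2%, 34.4%, 8.2%, 17.0% and 0%. The mutant was thus lower in 3 of the 4 steps that held islands. In the upper 50% of islands by score the difference was smaller, with 16.0% in the wild type against 12.1% in the mutant. After the window, the wild type had 1 island of 3.6 kb (61049001 to 61052600) and the mutant none, 0.72% and 0%.

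The chromosomes of the 3 windows showed no such excess as a whole. This, too, is a description, since the windows were chosen for their excess. Mutant cover was 0.995 times the wild-type cover on chromosome 5, 0.982 on chromosome 10 and 0.931 on chromosome 13. Without the windows the ratios were 0.985, 0.975 and 0.926, and the median over 19 autosomes was 0.982. Ratios of the 19 autosomes ran from 0.672 to 1.06.

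The 3 blocks were then placed among all long blocks of their list. Joined by the same rule, islands formed 760 mutant blocks and 608 wild-type blocks of at least 100 kb with at least 50% cover. The other list covered less than 50% of the span in 116 of the mutant and 59 of the wild-type blocks, and the median cover in the other list was 64.0% and 68.3%. The order by cover in the wild type reuses the contrast by which the windows were chosen, so the ranks are a description and not a finding. In that order, the Myo18b block came first among the mutant blocks, with 0%. The Dapk1 block had rank 5 with 14.4% and the Stab2 block rank 6 with 16.1%. The Stab2 value includes the stretch marked in both libraries, part of which lies before the window. Within the windows, wild-type cover was 9.26% at Stab2 and 12.4% at Dapk1. The other blocks below 20% lay on chromosome 4 (3.33% and 10.9%), chromosome 15 (11.8%) and chromosome 6 (17.2%), so 7 mutant blocks in all were below 20%. For the wild type there were 8 such blocks. They lay on chromosome 14 (1.69%, 2.23%, 7.76%, 12.8% and 15.4% mutant cover), chromosome 1 (8.58%), chromosome 17 (17.0%) and chromosome 19 (16.8%). Below 10% there were 2 mutant and 4 wild-type blocks.

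Within the mutant list, the Myo18b block was among the most filled long blocks and the Dapk1 block among the less dense ones. The choice of windows by their mutant cover favours filled blocks, so these positions, too, are a description. The score per window of the Myo18b block was above that of 73.3% of the 760 blocks, that of the Stab2 block above 65.7% and that of the Dapk1 block above 16.6%. In cover, 739 blocks were less filled than the Myo18b block, 590 less than the Stab2 block and 294 less than the Dapk1 block. A block on chromosome 15 also combined high mutant with low wild-type cover (chr15:97036201-97233400, 197.2 kb), with 77.4% mutant cover, 11.8% wild-type cover and a score of 7.02 per window.

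**Figure D4:**
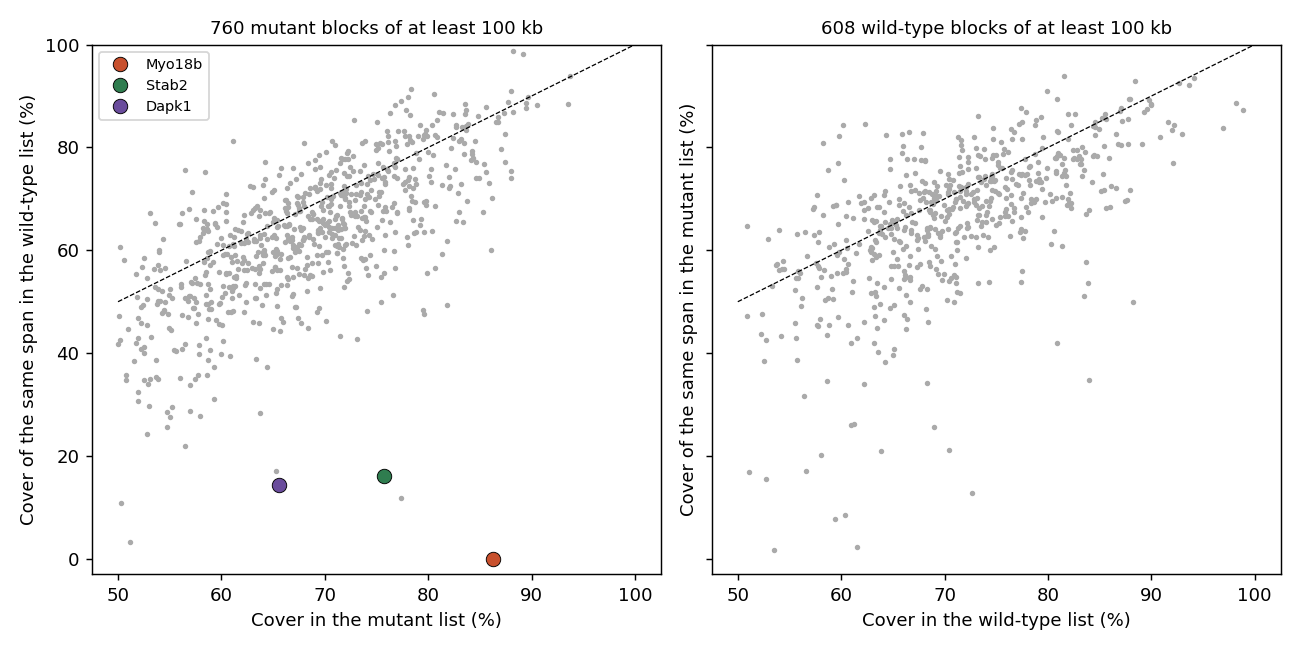
Blocks of at least 100 kb and 50% cover, 760 in the mutant list (left) and 608 in the wild-type list (right), by the percentage of their span covered in their own list and in the other list (dashed line: equal cover). The Myo18b, Dapk1 and Stab2 blocks lie at 0%, 14.4% and 16.1% on the vertical axis, where the median of the mutant blocks is 64.0%. Their windows were chosen for far more cover in the mutant, so these positions are a description.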

How the data were processed

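H3K36me3 was measured by ChIP-seq in 1 wild-type and 1 mutant library of the 4 samples; the 2 input libraries were not analysed here. The deposited lists give a chromosome, start, end and island score, 1 list per library. Bowtie 1.0.0, an aligner, SICER 1.1, a caller of broad regions, and the build mm9 are named in the submitters' processing notes. The window of 200 bp and gap of 600 bp stand in the deposited file names. Use of the input and removal of duplicate reads are not given in the sources used here. The score of an island, as SICER defines it, adds up −ln of the Poisson probability of each eligible window's reads, so it grows with depth and length.

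Cover was computed in Python 3.11.15 (pandas 2.3.3, numpy 2.4.6, scipy 1.17.1, figures with matplotlib 3.10.9), window by window. An overlap of 1 bp made a counterpart. Blocks join islands across gaps of up to 10 kb; the block of a window is the one with the most cover inside it. Depth was solved from the 8 wild-type and 14 mutant islands of 1 window. Library totals of reads were not computed. Coordinates count from 1. Named were the 3 genes, their direct neighbours and the 3 longest islands of a window in each list; other islands and blocks were named after their values were seen. With 1 library per genotype there is no test and no p-value. Members and lists were chosen with earlier results of these data known. The planned look at paralogs, cell type markers and gene bodies needed an mm9 annotation and was not run. The empty stretches, parts of blocks and scores at equal depth were added after the data were seen. Computations were tested on simulated data.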

Additional observations from a re-analysis of the deposited data

How the results depend on the processing

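The mutant excess in the 3 windows kept its direction in every alternative run. The windows were chosen for this excess, and every run used the same 2 lists. A reversal was therefore hardly possible, and nothing is read from the direction. With the upper 50% of islands by score, mutant minus wild-type cover was 74.5 points at Myo18b and 37.6 at Dapk1. With islands within 2 kb joined it was 85.4, 73.5 and 51.1 points at Myo18b, Stab2 and Dapk1. Windows trimmed by 20 kb on each side gave 89.4, 74.3 and 51.7 points, and windows widened by 20 kb gave 67.4, 53.6 and 36.4. With the same lowest score in both lists, an alternative chosen after seeing the data, the Dapk1 value was 39.1. Myo18b and Stab2 had 77.8 and 64.8 there, and Stab2 had 64.5 in the upper 50%. Islands of at least 2 kb gave 77.4, 64.0 and 41.5 points, and equal covered length left all 3 values as they were. Block ends depended on the setting most at Dapk1, whose block spanned 65.0 kb in the upper 50%, 115.6 kb with islands of at least 2 kb, 132.8 kb with the same lowest score and 98.0 kb with gaps of up to 5 kb. The Stab2 block spanned 195.4 kb in the upper 50% and 164.8 kb with gaps of up to 5 kb, and the Myo18b block 204.0 kb in the upper 50%. Before the Dapk1 window the difference was -3.92 points in the upper 50% and -10.8 with the same lowest score. After it, the difference was 0 in the upper 50%, -1.44 with flanks of 250 kb and 0.12 with flanks of 1 Mb. Flanks of 250 kb gave 0 points before Myo18b and 4.24 before Stab2, and flanks of 1 Mb -1.02 after Myo18b and 0.54 after Stab2. With islands joined, 14 of 21 mutant islands had no overlap in the wild type. Where an overlap of 50% of the island was needed, 57 of 63 fell short of it. The shares of all mutant islands under these settings were not computed. Tiles with an excess of 50 points numbered 3, 1 and 3 for the lengths of Myo18b, Stab2 and Dapk1 when shifted by 1 in 2 of their length. At 20 points they numbered 31, 45 and 43. No paired analysis was possible because there is 1 library per genotype, and no replicate could be left out. The list settings were not even-handed: 4428 wild-type and 0 mutant islands were removed to equalize covered length, and 34900 mutant but 29163 wild-type islands remained in the upper 50%.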
